A study of Rattus norvegicus with 18 samples.

Results

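Genes of the extracellular matrix and of blood vessel cells were measured in cultured rat hippocampal neurons, with and without RNA interference (RNAi) against the MEF2 family of transcription factors. Members were chosen by gene symbol. They were the collagens (Col), laminin chains (Lam), matrix metalloproteinases (Mmp) and tissue inhibitors of metalloproteinases (Timp), together with Lum, Dcn, Fn1, Bgn, Fbn1, Sparc, Fmod, Ogn, Cldn5, Pecam1, Flt1, Kdr and Tek. The arrays carried 85 such genes among 14218 genes with a single symbol. Of the 85, 55 passed a filter on dim signals, which asked that a gene lie above the 40th percentile of its array on at least 3 arrays. Over all genes, 10933 passed. The 55 were 28 of 41 collagens, 7 of 10 laminins, 7 of 17 metalloproteinases, all 4 inhibitors, 4 of 5 small leucine-rich proteoglycans, all 3 matrix glycoproteins (Fn1, Fbn1 and Sparc) and 2 of 5 vascular genes.

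RNA was measured on 18 Affymetrix arrays in 6 groups of 3. In the RNAi arm, neurons grown in dissociated culture received lentivirus with shRNAs specific for MEF2 on day 3, and the groups were 0, 1 and 6 h of KCl. The control arm received lentivirus with control shRNAs on the same day and had the same 3 times. On day 10, every group, the 0 h groups included, was first held for 1 h in AP5 (an NMDA receptor antagonist) and TTX (a sodium channel toxin). KCl at 55 mM, which depolarizes neurons, then followed for 0, 1 or 6 h. The samples are labelled as biological replicates, with no word on separate cultures, so p-values measure the spread between these arrays, which may be technical. The labels name no promoter for the shRNAs and no rat strain or age.

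The extracellular matrix is the protein scaffold that cells secrete around themselves. Fibrillar collagens give it tensile strength, while type IV collagen and laminins build basement membranes, the sheets that underlie endothelium and coat vessels and meninges. Metalloproteinases cut matrix proteins and cell surface proteins, TIMP proteins block them, and small leucine-rich proteoglycans such as decorin bind collagen fibrils and growth factors. In brain, most fibrillar collagen is made by meningeal and perivascular cells, astrocytes release laminins, SPARC and TIMPs, and claudin-5 seals the junctions between endothelial cells.

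Signals are the deposited intensities, on a linear scale. Differences are on the log2 scale, with standard errors (SE) from a limma fit over all 18 arrays, and a gene was called at a Benjamini-Hochberg adjusted p under 0.05 over the 10933 genes. Array medians lay between 240 and 248, and the 40th percentiles between 154 and 164. Mef2a, a target of the shRNAs, averaged 604, 573 and 485 in the RNAi arm at 0, 1 and 6 h, against 1846, 2168 and 1756 in the control arm. Precision is limited by having 3 arrays in a group. Arrays with the same replicate number deviated together in all groups, so members that gained a call in a fit with the number as a block are named, and block counts are given beside several lists.

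Of the 55 genes, 43 lay above the 40th percentile on all 18 arrays. The genes nearest the filter were Cldn5 and Col3a1, above it on 3 arrays each, and Kdr and Col18a1, above it on 4 each. Cldn5 passed through the 3 control 6 h arrays alone, and Kdr through those 3 and 1 RNAi 6 h array, so their place among the 55 was set by the groups in which they were high. Fmod passed through 8 RNAi arrays and no control array. The tests of these 3 genes are therefore given from the fit without the filter, unless the filtered fit is named, and counts are also given over the other 52. Of the 30 genes that did not pass, 29 lay above the percentile on no array, and Col11a2, a fibrillar collagen chain, lay above it on 1, with a highest signal of 166.

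The vascular label was borne out only in part by its markers. Pecam1, an adhesion protein of endothelial cells, lay between 43.4 and 51.5 on the 18 arrays, and Tek, the angiopoietin receptor, between 69.7 and 83.3. Flt1, a VEGF receptor, lay between 102 and 130. None of these 3 exceeded the 40th percentile on any array. Of 20 endothelial markers on the arrays, 9 passed the filter, and Vwf, Tie1, Emcn and Eng were among the 11 that did not. Esam at 430 to 540 and Egfl7 at 785 to 944 were well above it on all 18 arrays. Ogn, a small leucine-rich proteoglycan, reached 102, Mmp3 reached 88.5 and Mmp9 reached 90.0 at most, and Lama4, a laminin chain of vessel walls, reached 141.

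Promoters of 5 members are shown, chosen among the genes that have a window. Timp1, Lamc1 and Cldn5 are turned to below for their signals after KCl, and Lum and Mmp24 had the lowest average differences between the arms of the genes with a window. The sequences are from RefSeq (assembly GRCr8) and run from 250 bases before to 50 bases after the annotated start of the gene. Capitals mark GGGCGG (a GC box), TGACG (the core of the cyclic AMP response element, CRE) and TGAGTAA, on either strand. The last was added after the Timp1 window had been read. The windows lie at chrX:3771073-3771372 on the minus strand for Timp1, chr13:68051937-68052236 on the minus strand for Lamc1 and chr11:95718549-95718848 on the minus strand for Cldn5. Those of Lum, at chr7:34245456-34245755, and Mmp24, at chr3:164738976-164739275, are on the plus strand.
Timp1: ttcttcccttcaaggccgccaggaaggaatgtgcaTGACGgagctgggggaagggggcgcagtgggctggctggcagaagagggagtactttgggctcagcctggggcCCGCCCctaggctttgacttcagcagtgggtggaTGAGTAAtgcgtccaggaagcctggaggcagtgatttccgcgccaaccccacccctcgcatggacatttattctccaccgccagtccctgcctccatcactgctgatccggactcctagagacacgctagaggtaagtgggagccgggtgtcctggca
Lamc1: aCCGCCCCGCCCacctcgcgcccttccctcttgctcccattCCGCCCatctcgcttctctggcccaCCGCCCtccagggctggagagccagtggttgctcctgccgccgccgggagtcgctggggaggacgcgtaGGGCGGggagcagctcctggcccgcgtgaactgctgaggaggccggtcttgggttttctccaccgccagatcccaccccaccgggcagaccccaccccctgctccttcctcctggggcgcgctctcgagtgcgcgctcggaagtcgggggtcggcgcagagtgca
Cldn5: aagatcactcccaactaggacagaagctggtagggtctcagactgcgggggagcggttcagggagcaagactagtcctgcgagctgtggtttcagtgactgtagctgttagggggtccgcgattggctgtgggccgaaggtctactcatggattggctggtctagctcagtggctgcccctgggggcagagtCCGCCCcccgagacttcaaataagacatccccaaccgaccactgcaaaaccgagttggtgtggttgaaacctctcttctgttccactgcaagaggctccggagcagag
Lum: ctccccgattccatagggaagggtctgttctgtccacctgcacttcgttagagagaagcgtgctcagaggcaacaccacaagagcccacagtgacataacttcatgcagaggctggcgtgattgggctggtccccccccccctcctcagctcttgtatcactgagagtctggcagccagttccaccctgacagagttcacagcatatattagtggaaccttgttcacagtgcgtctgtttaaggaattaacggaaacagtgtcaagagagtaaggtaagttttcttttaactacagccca
Mmp24: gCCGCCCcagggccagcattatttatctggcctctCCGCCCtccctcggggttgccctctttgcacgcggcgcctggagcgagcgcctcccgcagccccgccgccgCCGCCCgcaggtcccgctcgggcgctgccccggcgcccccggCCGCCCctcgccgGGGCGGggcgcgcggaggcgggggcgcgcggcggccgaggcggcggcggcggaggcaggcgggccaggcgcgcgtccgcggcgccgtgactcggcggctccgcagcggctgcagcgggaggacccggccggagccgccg

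A promoter window was found for 40 of the 55 genes and for 10263 of the tested genes by gene ID. Those of Bgn, Col12a1, Col14a1, Col1a1, Col22a1, Col25a1, Col3a1, Col6a2, Dcn, Fn1, Lamb2, Mmp14, Mmp16, Mmp17 and Mmp2 are not shown. The Timp1 window held TGACG from position -215, a GC box from -142 and TGAGTAA from -108, counted from the start. TGAGTAA was in 1 of the 40 windows, that of Timp1, from which it was taken, so this count was set in advance. Among windows of tested genes 1.64% held it. The AP-1 motif TGANTCA was in 1 of the 40 windows, that of Col6a1, against 4.93% of tested genes. The full CRE, TGACGTCA, was in 0 of the 40 against 3.16%, and its core, which every full CRE contains, was in 4 of the 40 against 31.0%. The MEF2 motif was in 0 of the 40 against 1.53%, and the CArG motif of the serum response factor was in 1, that of Lama2, against 1.47%. GC boxes were in 26 of the 40 windows, or 65%, against 61.2% of tested genes. The Lum window held none of the motifs searched. These counts describe the letters in 300-base windows on both strands and were not tested.

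After 1 h of KCl, none of the 55 genes was called in either arm, where 3.88% of all genes were called in the RNAi arm and 2.7% in the control arm. At an unadjusted p under 0.05, 1 gene passed in the RNAi arm and 0 in the control arm. The 1 gene was Col4a2, a chain of the basement membrane collagen IV. It read 1352, 1481 and 1599 on the RNAi arrays at 1 h, against 936.8, 1248 and 1268 at 0 h. Each 1 h array lay above each 0 h array in that arm, with a log2 difference of 0.37 (SE 0.12; adjusted p = 0.109). With replicate number as a block, where 8.27% of all genes were called, Col4a2 passed in limma's fit (adjusted p = 0.032). Without control 0 h replicate 3, the control arm had 1 call, Lum, a fall with a log2 difference of -0.76 (adjusted p = 0.0267).

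After 6 h of KCl, 13 of the 55 genes were called in the RNAi arm, 12 higher and 1 lower, where 40% of all genes were called (14.7% higher and 25.3% lower). In the control arm 11 were called, 10 higher and 1 lower, where 41.5% of all genes were called (16.1% higher and 25.5% lower). The rises in the RNAi arm were Col12a1, Lamc1, Fn1, Dcn, Timp1, Cldn5, Col11a1, Col4a2, Lamb1, Mmp17, Mmp23 and Col5a1. Those in the control arm were Cldn5, Col12a1, Lamc1, Fn1, Col11a1, Lamb1, Timp1, Lamb2, Mmp17 and Kdr. Col25a1 fell in both. Without Cldn5, Kdr and Fmod the counts were 12 of 52 in the RNAi arm and 9 of 52 in the control arm. The median log2 difference of the 55 was 0.10 in the RNAi arm and 0.05 in the control arm, against -0.02 over all genes in each arm. The counts with replicate number as a block were 20 in the RNAi arm (49.7% of all genes) and 14 in the control arm (50.3% of all genes).

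**Figure D1:**
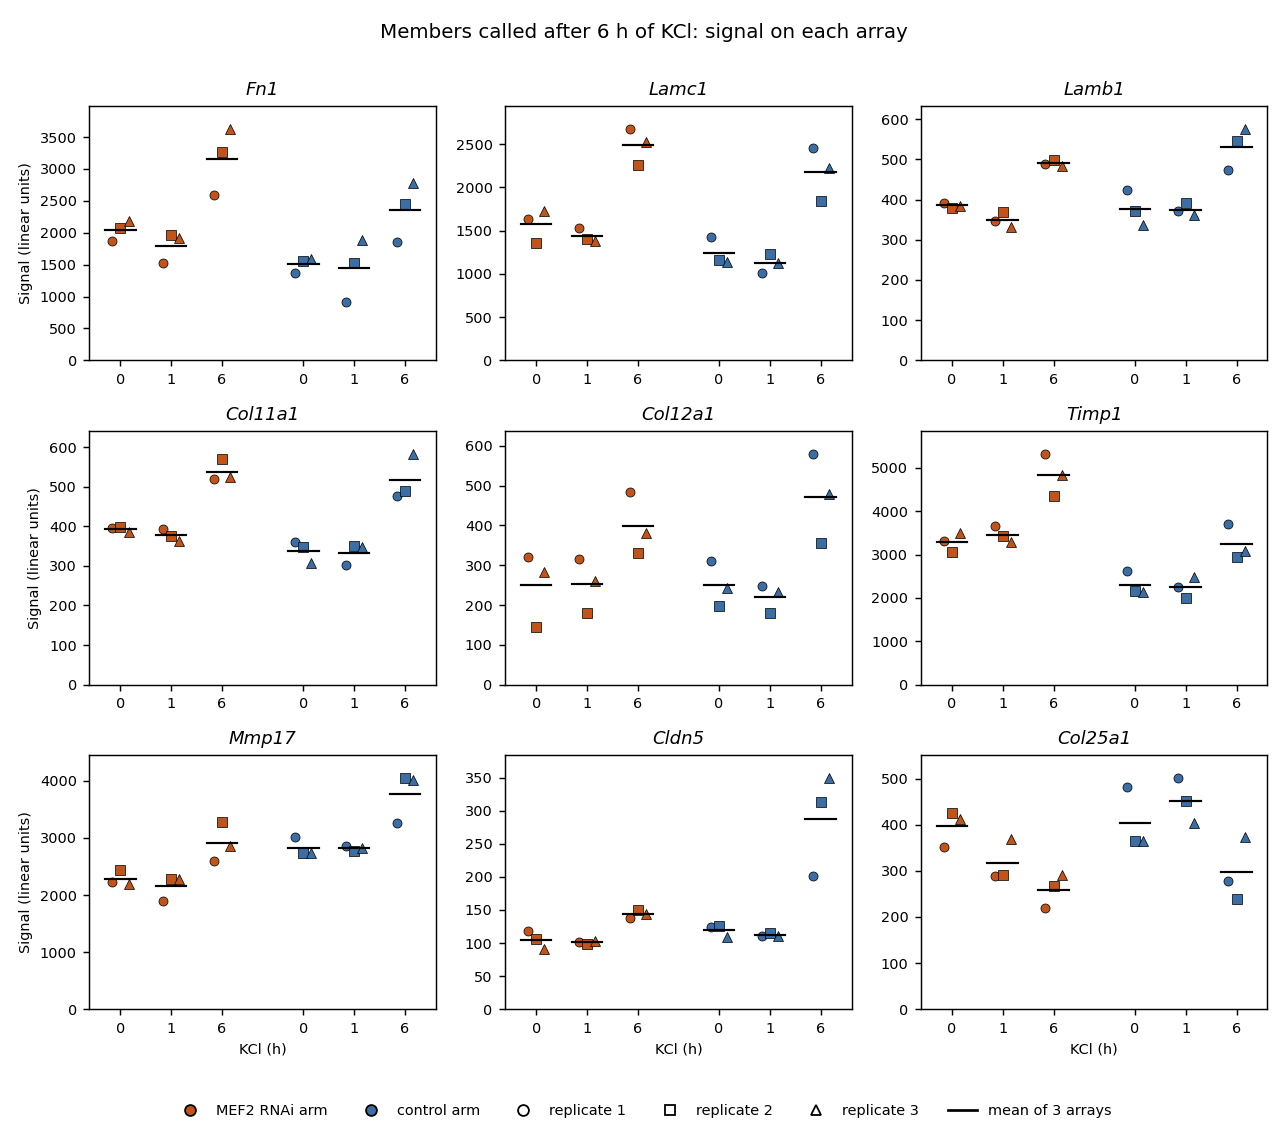
Signal (linear units, vertical axes from 0) of 9 genes called after 6 h of KCl, by hours of KCl, with the 3 RNAi groups left of the 3 control groups. Each symbol is 1 array, its shape the replicate number, and bars are means of 3 arrays. In Lamc1, Timp1 and Col11a1 every 6 h array lies above the 0 h arrays of its arm, while Cldn5 reaches 138 to 150 in the RNAi arm at 6 h and 202 to 350 in the control arm.

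Among fibrillar collagens and the collagens that decorate their fibrils, Col11a1 and Col12a1 rose in both arms and Col5a1 in the RNAi arm. Col11a1, a minor chain of fibrils, read 519, 570 and 525 on the RNAi arrays at 6 h, against 396, 398 and 386 at 0 h. In the control arm it read 475, 489 and 583 at 6 h, against 359, 347 and 308 at 0 h. The groups did not overlap in either arm, and the log2 difference was 0.45 (SE 0.08; adjusted p = 0.000455) in the RNAi arm and 0.61 (SE 0.08; adjusted p = 2.77e-05) in the control arm. Col12a1 lies along the surface of fibrils. It read 483, 331 and 380 on the RNAi arrays at 6 h, against 320, 146 and 283 at 0 h. Its control arrays read 580, 357 and 478 at 6 h, against 310, 198 and 243 at 0 h. Replicate 2 was lowest at both times in both arms, and the 6 h arrays lay above all 0 h arrays of the same arm. Col12a1 differed by 0.73 (SE 0.28; adjusted p = 0.0492) in the RNAi arm and 0.91 (SE 0.28; adjusted p = 0.0163) in the control arm. Leaving out 1 array at a time, the RNAi call was lost for 9 arrays (control 0 h replicate 3, control 1 h replicates 1 to 3, control 6 h replicate 3, RNAi 0 h replicate 2, RNAi 1 h replicate 3 and RNAi 6 h replicates 1 and 3), at adjusted p of 0.0515 to 0.271. The control call was lost without control 6 h replicate 1 or control 0 h replicate 2, at adjusted p of 0.0728 and 0.0753. With the mean of all probe sets of a gene, the differences were smaller, at 0.17 in the RNAi arm and 0.35 in the control arm for Col11a1 and at 0.27 and 0.33 for Col12a1, all still called. The RNAi call of Col12a1 was also lost without the filter (adjusted p = 0.0925), with the mean-variance trend and robust estimation (0.0511) and with only the arrays compared (0.079).

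Col5a1, a regulatory chain of fibril diameter, read 1267, 1206 and 1199 on the RNAi arrays at 6 h, against 1193, 947 and 967 at 0 h, which did not overlap. Its log2 difference was 0.25 (SE 0.08; adjusted p = 0.0283), and the call was lost without RNAi 6 h replicate 1 or 2 or RNAi 0 h replicate 2 or 3 (adjusted p from 0.0534 to 0.133). With only the arrays compared it was lost too (adjusted p = 0.0892). In the control arm the main fit did not call Col5a1. Its log2 difference there at 6 h was 0.11 to 0.23 over the alternatives, 1 of which called it. The other Col5a1 probe set read 0.11 higher in the RNAi arm and 0.27 higher in the control arm. Neither was called (adjusted p over probe sets 0.432 and 0.0557). Col5a2, its partner chain, had log2 differences of 0.47 in the RNAi arm (SE 0.20; adjusted p = 0.0814) and 0.51 in the control arm (SE 0.20; adjusted p = 0.0589). With replicate number as a block it was called in both arms (adjusted p = 0.000154 in the RNAi arm and 6.99e-05 in the control arm), while its other probe set read 0.19 higher in each arm and was not called. Col25a1, a transmembrane collagen of neurons, read 220, 266 and 291 on the RNAi arrays at 6 h, against 352, 426 and 413 at 0 h. It read 278, 239 and 373 on the control arrays at 6 h, against 483, 366 and 365 at 0 h. The groups were apart in the RNAi arm and overlapped in the control arm, where replicate 3 was slightly higher at 6 h. The log2 difference was -0.62 (SE 0.16; adjusted p = 0.00626) in the RNAi arm and -0.46 (SE 0.16; adjusted p = 0.0326) in the control arm. The control call was lost without control 0 h replicate 1 or control 6 h replicate 1 or 2 (adjusted p from 0.0883 to 0.167), as well as without the filter (0.0633) and with only the arrays compared (0.0901).

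Col4a2 rose at 6 h in the RNAi arm, where it read 1301, 1562 and 1500 at 6 h against 937, 1248 and 1268 at 0 h. Control arrays read 1938, 1862 and 1698 at 6 h, against 1701, 1698 and 1772 at 0 h. The RNAi groups were apart and the control groups overlapped. The log2 difference in the RNAi arm was 0.35 (SE 0.12; adjusted p = 0.0291), and the call was lost without RNAi 0 h replicate 1, RNAi 6 h replicate 2 or RNAi 6 h replicate 3 (adjusted p from 0.0841 to 0.15), and with only the arrays compared (0.0763). Col4a1, its partner in the collagen IV heterotrimer, averaged 539 ± 61.2 at 6 h and 569 ± 59.2 at 0 h in the RNAi arm (SD, n = 3 each) and was not called.

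Of the laminin chains, Lamc1 and Lamb1 rose in both arms and Lamb2 in the control arm. Lamc1, the gamma 1 chain found in most laminins, read 2670, 2259 and 2527 on the RNAi arrays at 6 h, against 1637, 1357 and 1723 at 0 h. On the control arrays it read 2449, 1848 and 2220 at 6 h, against 1429, 1156 and 1138 at 0 h. All 6 h arrays lay above the 0 h arrays of their arm, with log2 differences of 0.66 (SE 0.12; adjusted p = 0.000361) in the RNAi arm and 0.81 (SE 0.12; adjusted p = 5.77e-05) in the control arm. With the mean of all Lamc1 probe sets they were 0.44 and 0.52, both still called. Lamb1, the beta 1 chain, read 490, 498 and 483 on the RNAi arrays at 6 h, against 393, 380 and 385 at 0 h. In the control arm it read 473, 547 and 575 at 6 h, against 424, 372 and 336 at 0 h. Again no groups overlapped, and the log2 difference was 0.34 (SE 0.08; adjusted p = 0.00322) in the RNAi arm and 0.50 (SE 0.08; adjusted p = 0.000154) in the control arm.

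Lamb2, the beta 2 chain of synaptic and vascular basement membranes, read 519, 402 and 411 on the RNAi arrays at 6 h, against 354, 290 and 392 at 0 h. On the control arrays it read 337, 288 and 360 at 6 h, against 265, 184 and 268 at 0 h. The groups were apart in both arms. The log2 difference of 0.36 in the RNAi arm was not called (SE 0.15; adjusted p = 0.0705), and that of 0.47 in the control arm was (SE 0.15; adjusted p = 0.0204). With replicate number as a block the RNAi arm passed too (adjusted p = 0.00432). The control call was lost without control 0 h replicate 2 or control 6 h replicate 1 or 3 (adjusted p from 0.056 to 0.127), and with only the arrays compared (0.0562). Lama1, Lama2, Lama5 and Lamc3, the other measured laminin chains, were not called at 6 h in either arm.

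Fn1, fibronectin, which links integrins to collagen, rose in both arms. It read 2591, 3264 and 3620 on the RNAi arrays at 6 h, against 1864, 2074 and 2183 at 0 h. In the control arm it read 1857, 2444 and 2781 at 6 h, against 1372, 1552 and 1584 at 0 h. The groups did not overlap in either arm, and replicate 1 was the lowest array in each of the 6 groups. The log2 difference was 0.62 (SE 0.21; adjusted p = 0.0284) in the RNAi arm and 0.63 (SE 0.21; adjusted p = 0.0244) in the control arm. The RNAi call was lost without RNAi 0 h replicate 1 or 2 or RNAi 6 h replicate 2 or 3, at adjusted p of 0.0595 to 0.109. The control call was lost without control 0 h replicate 1 or control 6 h replicate 2 or 3, at adjusted p of 0.0701 to 0.108. Without the filter neither arm passed (adjusted p = 0.0579 in the RNAi arm and 0.0522 in the control arm). Sparc, a collagen-binding glycoprotein, averaged 6305 ± 852 at 6 h and 6032 ± 445 at 0 h in the RNAi arm, and 5108 ± 935 at 6 h and 4277 ± 1193 at 0 h in the control arm (SD, n = 3 each). Neither Sparc nor Fbn1, the microfibril protein fibrillin-1, was called at 6 h.

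Among proteases and inhibitors, Timp1 and Mmp17 rose in both arms and Mmp23 in the RNAi arm. Timp1, a secreted inhibitor of most metalloproteinases, read 5324, 4347 and 4841 on the RNAi arrays at 6 h, against 3307, 3069 and 3508 at 0 h. On the control arrays it read 3704, 2943 and 3073 at 6 h, against 2617, 2162 and 2136 at 0 h. All 6 h arrays lay above the 0 h arrays of their arm, and the log2 difference was 0.55 (SE 0.11; adjusted p = 0.000764) in the RNAi arm and 0.49 (SE 0.11; adjusted p = 0.00185) in the control arm. Mmp17, a membrane-bound protease anchored by a lipid, read 2590, 3275 and 2854 on the RNAi arrays at 6 h, against 2229, 2443 and 2185 at 0 h. In the control arm it read 3259, 4050 and 4020 at 6 h, against 3014, 2733 and 2734 at 0 h. The groups were apart in both arms, with log2 differences of 0.34 (SE 0.10; adjusted p = 0.0129) in the RNAi arm and 0.41 (SE 0.10; adjusted p = 0.00368) in the control arm. The RNAi call was lost without RNAi 6 h replicate 2 (adjusted p = 0.0753).

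Mmp23, a small membrane protease, read 214.4, 251 and 277 on the RNAi arrays at 6 h, against 214.5, 200 and 184 at 0 h, and these groups overlapped at replicate 1. Its log2 difference was 0.31 (SE 0.09; adjusted p = 0.0129), and the call was lost without RNAi 0 h replicate 3 or RNAi 6 h replicate 3 (adjusted p = 0.0646 and 0.0787) and with only the arrays compared (0.061), while the mean of all Mmp23 probe sets gave 0.12. Mmp2 and Mmp14 were not called at 6 h in either arm, and neither were Timp2 and Timp3. Timp4 had a log2 difference of -0.28 in the RNAi arm (adjusted p = 0.259) and -0.38 in the control arm (adjusted p = 0.132). It passed with replicate number as a block in both arms (adjusted p = 0.00936 in the RNAi arm and 0.0012 in the control arm), and was lower at 6 h at each of the 3 replicate numbers. Under the block, Mmp15, Mmp16 and Timp4 were lower in the RNAi arm and Col6a5, Col5a2, Lamb2 and Lum higher, beside the 13 calls above.

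Cldn5 had the largest difference of the vascular genes. It read 138, 150 and 143 on the RNAi arrays at 6 h, against 118, 107 and 90.7 at 0 h. On the control arrays it read 202, 313 and 350 at 6 h, against 123, 126 and 109 at 0 h. The 3 control arrays at 6 h stood above all 15 other arrays, and all RNAi arrays lay below the 40th percentile. Since those 3 arrays alone brought Cldn5 through the filter, its test is that of limma without a filter. There the log2 difference was 0.46 (adjusted p = 0.0402) in the RNAi arm and 1.23 (adjusted p = 5.18e-05) in the control arm. In the filtered fit, the RNAi arm did not pass without RNAi 0 h replicate 3 or RNAi 6 h replicate 2 (adjusted p = 0.0635 and 0.0989). Kdr, the main VEGF receptor, read 156, 147 and 172 on the RNAi arrays at 6 h, against 140, 144 and 143 at 0 h, which was not called. In the control arm it read 193, 166 and 178 at 6 h, against 149, 141 and 141 at 0 h, with a log2 difference of 0.31. Kdr passed the filter through 6 h arrays only, and without a filter its adjusted p from limma was 0.00822 in the control arm. The mean of all Kdr probe sets gave 0.17. Other endothelial markers moved in both directions. Mcam, an adhesion protein, was higher at 6 h by 0.28 in the RNAi arm and 0.50 in the control arm, while Ramp2, a co-receptor for adrenomedullin, was lower by a log2 difference of -0.67 in the RNAi arm and -0.92 in the control arm, all 4 called. In all, 3 of the 9 measured endothelial markers were higher and 1 lower at 6 h in each arm, where 14.7% of all genes were higher and 25.3% lower in the RNAi arm, and 16.1% and 25.5% in the control arm. Cldn5 in both arms and Kdr in the control arm are among these counts. Both entered the list through 6 h arrays alone, so their part of the counts cannot be weighed against the shares. The block raised the higher ones to 5 in the RNAi arm, Cldn5 among them, where it called 49.7% of all genes.

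**Figure D2:**
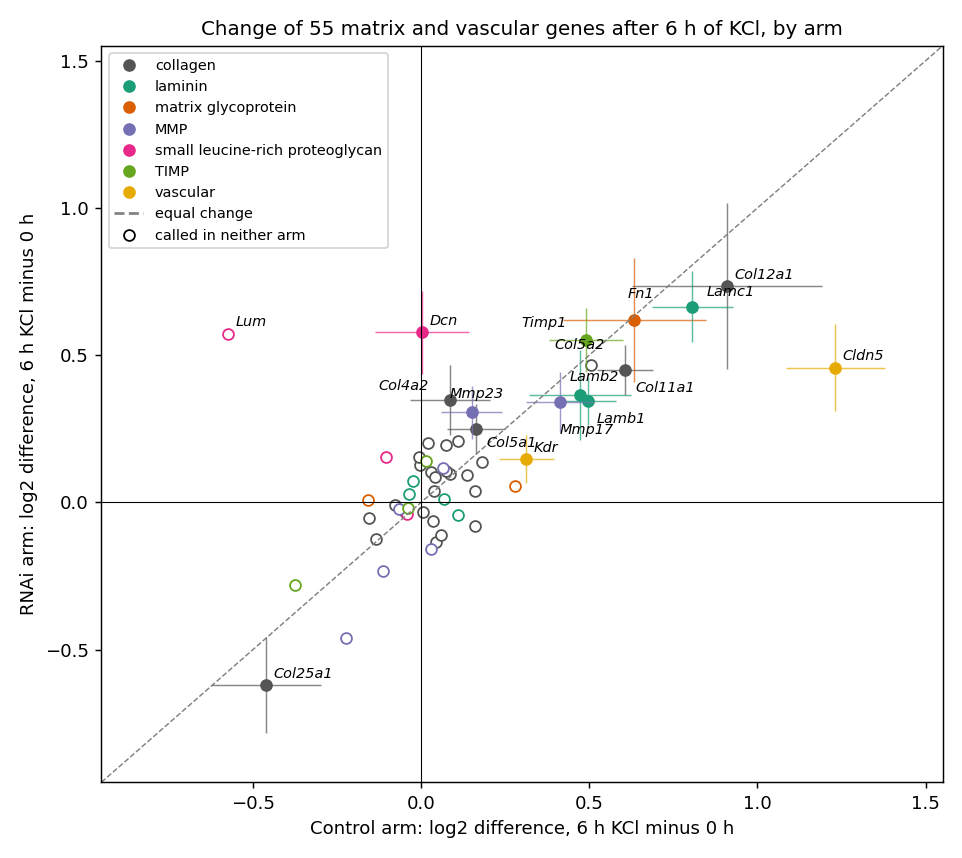
Log2 difference between 6 h and 0 h of KCl in the RNAi arm (vertical axis) against the control arm (horizontal axis) for the 55 genes, with SE bars on genes called in at least 1 arm. Most called genes lie near the line of equal change, Cldn5 lies below it at 0.46 against 1.23, and Dcn lies above it at 0.58 against 0.00.

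The difference between the arms in the KCl response, tested as an interaction, was called for 0 of the 55 genes at 1 h and 0 at 6 h, where 0% and 0.119% of all genes were called. At an unadjusted p under 0.05, limma passed 2 genes at 1 h and 3 at 6 h, and the fit with replicate number as a block called 0 at each time, against 0% and 1.15% of all genes. Those at 6 h were Cldn5 with a log2 difference of -0.77 (SE 0.21; adjusted p = 0.207), Lum with 1.15 (SE 0.37; adjusted p = 0.313) and Dcn with 0.57 (SE 0.20; adjusted p = 0.372). Cldn5 is in this test only through its control 6 h arrays, and without a filter its adjusted p was 0.282. Over the alternatives tried, the adjusted p of Cldn5 ranged from 0.0127 to 0.47 and that of Lum from 0.0237 to 0.578. Without control 6 h replicate 1 Cldn5 was the 1 gene called, and without control 0 h replicate 3 Lum was. Those at 1 h were Col4a2 with 0.41 and Col25a1 with -0.50, each at an adjusted p of 1.

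Between the arms, averaged over the 3 times, 21 of the 55 genes were called, 12 higher and 9 lower with RNAi, where 37.6% of all genes were called (20.9% higher and 16.6% lower). At single times 9 were called at 0 h, 5 higher and 4 lower, where 14.9% of all genes were called (8.66% higher and 6.19% lower). At 1 h 12 were called, 5 higher and 7 lower, against 17.1% of all genes (7.98% higher and 9.12% lower). At 6 h 7 were called, 3 higher and 4 lower, against 17.2% (8.66% higher and 8.54% lower). With replicate number as a block the counts were 16 at 0 h (26% of all genes), 16 at 1 h (28.1%), 13 at 6 h (28.2%) and 26 for the average (47.8%). The genes gained were Col19a1, Fmod, Fn1, Lamc1, Mmp17, Sparc and Timp3 at 0 h, Col16a1, Col4a5, Fn1 and Lamc1 at 1 h, and Col19a1, Col4a2, Fmod, Fn1, Lamb2 and Mmp14 at 6 h. For the average they were Col25a1, Col6a1, Fbn1, Mmp15 and Mmp16. Without Cldn5, Kdr and Fmod, the counts without the block were 9 of 52 at 0 h, 11 at 1 h, 6 at 6 h and 18 for the average (11 higher and 7 lower). Higher on average were Mmp14, Timp1, Lamb2, Fn1, Sparc, Fmod, Col4a5, Lama5, Lamc1, Timp3, Col16a1 and Col11a1. Lower were Dcn, Lum, Mmp24, Col19a1, Cldn5, Col4a2, Mmp17, Col23a1 and Kdr. The median of the 55 was -0.01, against 0.01 over all genes. In bulk samples, fewer cells of a type and less RNA per cell cannot be told apart, and this holds for all differences below.

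**Figure D3:**
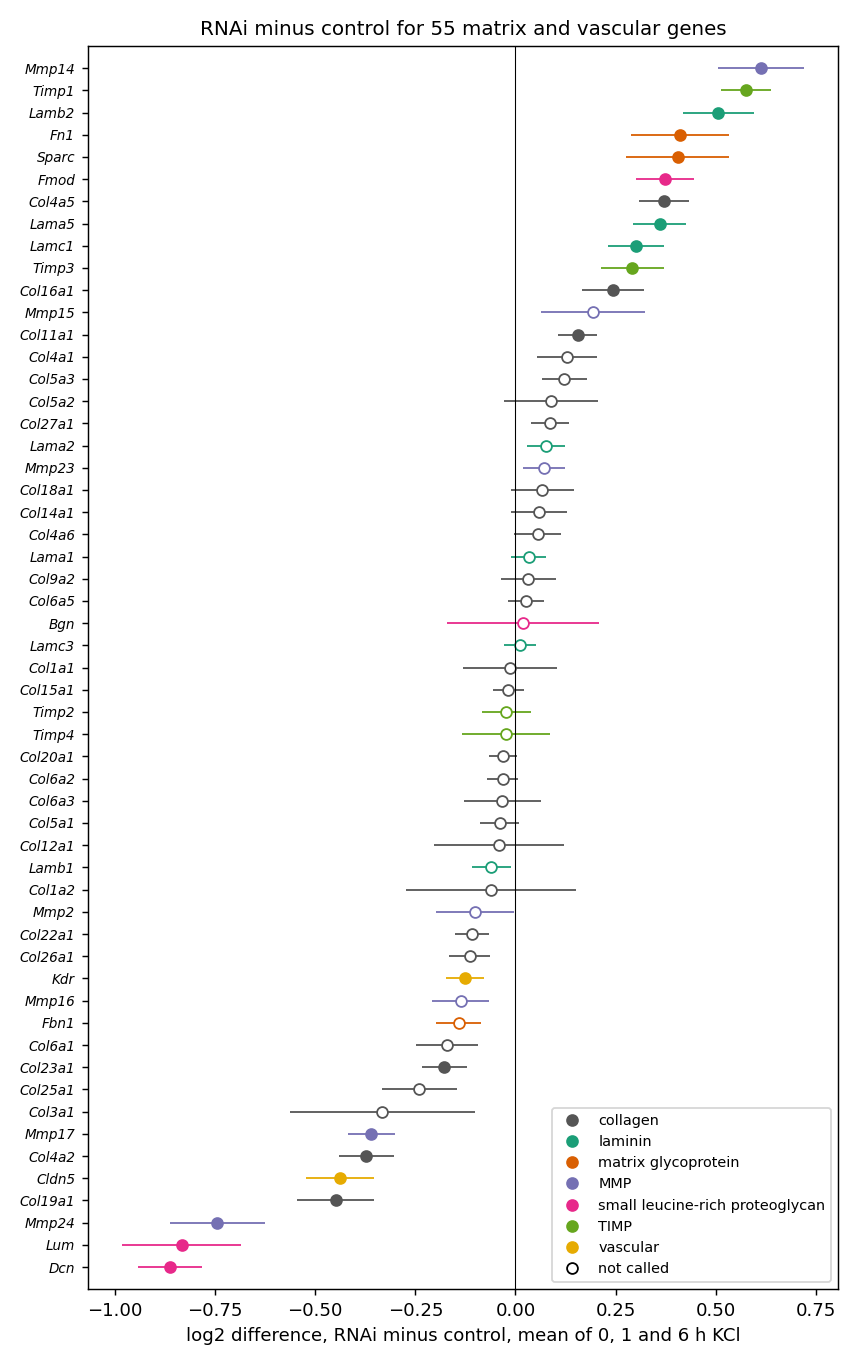
Log2 difference between the RNAi and control arms, averaged over 0, 1 and 6 h of KCl, for the 55 genes in order, coloured by family, with SE bars. Filled points are called. Dcn at -0.86 and Lum at -0.83 stand at the low end and Mmp14 at 0.61 and Timp1 at 0.58 at the high end.

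Decorin and lumican, which bind collagen fibrils, were the 2 lowest of the 55 with RNAi. Dcn read 945, 1148 and 1186 on the RNAi arrays at 0 h, against 2473, 2433 and 1947 on the control arrays. At 1 h it read 814, 1120 and 1064 with RNAi, against 2349, 1949 and 1826. At 6 h it read 1414, 1663 and 1816 with RNAi, against 2332, 2396 and 2113. No RNAi array reached a control array at any time. Its log2 difference between arms was -1.06 at 0 h (SE 0.14; adjusted p = 0.0001), -1.04 at 1 h (SE 0.14; adjusted p = 0.00012) and -0.49 at 6 h (SE 0.14; adjusted p = 0.0243). The call at 6 h was lost without control 6 h replicate 1 or 2 or RNAi 6 h replicate 1 (adjusted p from 0.0626 to 0.118). Within the RNAi arm, Dcn was higher at 6 h than at 0 h by 0.58 (SE 0.14; adjusted p = 0.00348), whereas the control arrays at 6 h, at 2280 ± 148, and at 0 h, at 2285 ± 293 (SD, n = 3 each), did not differ by more than their spread.

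Lum read 130, 166 and 144 on the RNAi arrays at 0 h, against 539, 350 and 182 on the control arrays. The 1 h signals were 96.3, 107 and 101 with RNAi, against 301, 239 and 233. At 6 h it read 229, 225 and 199 with RNAi, against 211, 256 and 193. The arms were apart at 0 h and 1 h and overlapped at 6 h, and the control 0 h arrays were spread widely. Lum differed between arms by -1.16 at 0 h (SE 0.26; adjusted p = 0.00662) and -1.34 at 1 h (SE 0.26; adjusted p = 0.00212), and 6 h was not called. Within the arms, the log2 difference of Lum between 6 h and 0 h was 0.57 with RNAi (adjusted p = 0.0901) and -0.57 in the control arm (adjusted p = 0.0903), and both passed with replicate number as a block (adjusted p = 0.0438 and 0.0434). Without control 0 h replicate 3, the array at 182, the fall in the control arm at 6 h was -0.99. With only the arrays compared, the call at 0 h was lost (adjusted p = 0.0809). Fmod, fibromodulin, read 208, 168 and 191 with RNAi at 1 h, against 140, 137 and 150. It passed the filter through RNAi arrays alone, and in limma without a filter its average log2 difference was 0.37 (adjusted p = 0.0023), while 1 h did not pass (adjusted p = 0.0673). In the filtered fit, 1 h did not pass without control 1 h replicate 1 or 2 or RNAi 1 h replicate 1 or 3 (adjusted p from 0.096 to 0.15). Bgn, biglycan, was not called in any comparison.

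Markers of fibroblasts and meningeal cells did not move as 1 group with Dcn and Lum. Of 19 on the arrays 12 passed the filter, of which 3 were lower with RNAi on average and 1 higher, against 16.6% and 20.9% of all genes. The 3 were Dcn, Lum and Postn, a matrix protein of connective tissue, at -0.76 (SE 0.10; adjusted p = 1.67e-05), and the 1 was Slc13a3 at 0.19. Summed over the 12 markers, the signal was 4468 to 7340 on the RNAi arrays at 0 h, against 5702 to 8258 on the control arrays, and these ranges overlapped. The list shares Dcn, Lum, Col1a1, Col1a2 and Col3a1 with the genes described here. The part of such cells in the Dcn and Lum differences was not tested.

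**Figure D4:**
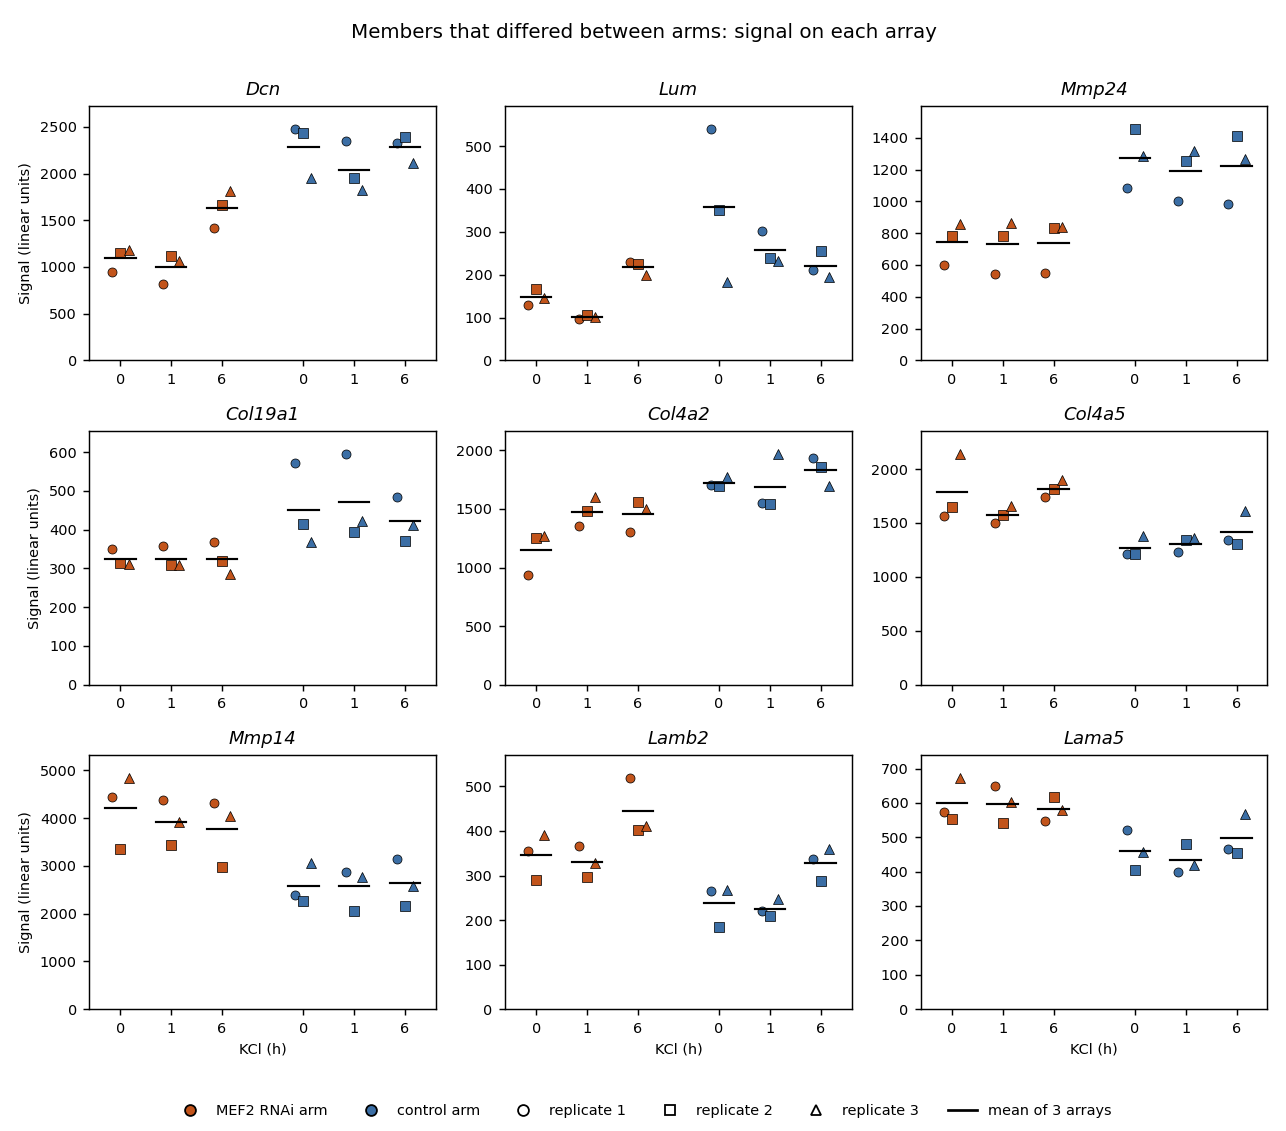
Signal (linear units, vertical axes from 0) of 9 genes called between the arms, by hours of KCl, with the 3 RNAi groups left of the 3 control groups. Each symbol is 1 array, its shape the replicate number, and bars are means of 3 arrays. All 9 RNAi arrays of Dcn, at 814 to 1816, lie below all 9 control arrays, at 1826 to 2473, and likewise for Mmp24 and Col19a1.

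Metalloproteinases went both ways. Mmp14, a membrane-bound collagenase that activates Mmp2, read 4446, 3341 and 4836 on the RNAi arrays at 0 h, against 2395, 2257 and 3068 on the control arrays. At 1 h it read 4376, 3439 and 3927 with RNAi, against 2867, 2060 and 2774. At 6 h it read 4314, 2968 and 4045 with RNAi, against 3148, 2165 and 2586. The arms were apart at 0 h and 1 h, overlapped at 6 h, and replicate 2 was the lowest array of all 6 groups. The average log2 difference was 0.61 (SE 0.11; adjusted p = 0.000334), and a dimmer Mmp14 probe set also read higher, by 0.26 (adjusted p over probe sets 0.0355). At single times it was 0.70 at 0 h (adjusted p = 0.0184), 0.62 at 1 h (adjusted p = 0.033) and 0.52 at 6 h (adjusted p = 0.0699, or 0.000778 with replicate number as a block). The call at 0 h was lost without control 0 h replicate 1 or 2 or RNAi 0 h replicate 1 or 3 (adjusted p from 0.0546 to 0.0845), and that at 1 h without control 1 h replicate 2 or RNAi 1 h replicate 1 or 3 (adjusted p from 0.0823 to 0.146). With the mean of all probe sets neither passed, at 0.48 for 0 h (adjusted p = 0.0599) and 0.39 for 1 h (adjusted p = 0.114), and without the filter 1 h did not pass (adjusted p = 0.0685).

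Mmp24, a membrane-bound protease of the nervous system, read 599, 785 and 858 on the RNAi arrays at 0 h, against 1085, 1453 and 1283 on the control arrays. The 1 h signals were 543, 782 and 861 with RNAi, against 1005, 1252 and 1317. At 6 h it read 552, 831 and 839 with RNAi, against 986, 1413 and 1267. The arms did not overlap at any time, and replicate 1 was lowest in every group. The log2 difference was -0.78 at 0 h, -0.73 at 1 h and -0.73 at 6 h, and -0.74 on average (SE 0.12; adjusted p = 0.000141). Each single-time call was lost without replicate 1 of the RNAi group or replicate 2 or 3 of the control group (adjusted p from 0.053 to 0.0815 at 0 h, 0.0725 to 0.123 at 1 h and 0.071 to 0.121 at 6 h). The probe sets of this gene disagreed. A second one read higher with RNAi, by 0.15 on average (SE 0.05; adjusted p over probe sets 0.0261), and with the mean of all Mmp24 probe sets the average was -0.10 and not called (adjusted p = 0.0632), nor was any single time. Without the filter the call at 1 h was lost (adjusted p = 0.0528), and with only the arrays compared that at 6 h (adjusted p = 0.0585). Mmp17, which rose with KCl in both arms, was lower with RNAi by a log2 difference of -0.36 on average (SE 0.06; adjusted p = 0.00016). Its call at 1 h was lost without RNAi 1 h replicate 1 (adjusted p = 0.0739), and that at 6 h without RNAi 6 h replicate 1 or 3 or control 6 h replicate 2 or 3 (adjusted p from 0.0523 to 0.0926) and with only the arrays compared (0.0871).

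Timp1 differed between the arms at every time. At 0 h it read 3307, 3069 and 3508 with RNAi, against 2617, 2162 and 2136. At 1 h it read 3664, 3418 and 3284 with RNAi, against 2255, 1989 and 2479. At 6 h, when both arms were higher, the RNAi arrays at 4347 to 5324 were still above the control arrays at 2943 to 3704. The log2 difference was 0.52 at 0 h (SE 0.11; adjusted p = 0.0044), 0.63 at 1 h (SE 0.11; adjusted p = 0.000972) and 0.58 at 6 h (SE 0.11; adjusted p = 0.00196). Timp1 kept all 6 of its calls, between arms and after KCl, under each alternative tried, with adjusted p of at most 0.0242. Timp3, an inhibitor held in the matrix, averaged 3526 ± 413 with RNAi at 6 h and 2640 ± 234 in the control arm (SD, n = 3 each). Its log2 difference averaged 0.29 over the times (SE 0.08; adjusted p = 0.00801), and 3 further probe sets read 0.19, 0.37 and 0.35 higher, each called. The Timp3 call at 6 h, at an adjusted p of 0.0477, was lost when any 1 of 12 arrays was left out (control 0 h replicates 1 to 3, control 6 h replicates 1 to 3, control 1 h replicate 3, RNAi 0 h replicate 1, RNAi 1 h replicates 2 and 3, and RNAi 6 h replicates 1 and 3), at adjusted p of 0.0518 to 0.173. It was also lost without the filter (0.0846), with quantile normalization (0.0514), with the mean of all probe sets (0.0655) and with only the arrays compared (0.0503). Timp2 and Timp4 were not called between the arms.

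Among laminins, Lamb2, Lama5 and Lamc1 were higher with RNAi on average and Lamb1 was not called. Lamb2 read 354, 290 and 392 with RNAi at 0 h, against 265, 184 and 268 in the control arm. The 1 h signals were 366, 297 and 328 with RNAi, against 221, 208 and 248. The arms did not overlap at either time, and the average log2 difference over 3 times was 0.51 (SE 0.09; adjusted p = 0.000298). Lama5, the alpha 5 chain of mature basement membranes, read 574, 552 and 672 with RNAi at 0 h, against 521, 404 and 456. At 1 h it read 648, 543 and 602 with RNAi, against 400, 479 and 420. Its arms were apart at both times, with a log2 difference of 0.38 at 0 h (adjusted p = 0.0318), 0.47 at 1 h (adjusted p = 0.00963) and 0.36 on average (SE 0.07; adjusted p = 0.00042). The average for Lamc1 was 0.30 (SE 0.07; adjusted p = 0.00282). At single times, calls were lost for Lamb2 at 0 h without control 0 h replicate 2 or RNAi 0 h replicate 1 or 3 (adjusted p from 0.0673 to 0.133), and at 1 h without control 1 h replicate 1 or 2 or RNAi 1 h replicate 1 or 3 (adjusted p from 0.0553 to 0.0921). That of Lama5 at 0 h was lost without control 0 h replicate 2 or 3 or RNAi 0 h replicate 3 (adjusted p from 0.0786 to 0.151), and without the filter (0.0555), with quantile normalization (0.0567) or with only the arrays compared (0.0872). With the mean of all probe sets, Lama5 differed by 0.13 at 0 h (adjusted p = 0.0865), 0.15 at 1 h (adjusted p = 0.0534) and 0.12 on average (adjusted p = 0.00294), so both single-time calls were lost, and Lamc1 differed by 0.17 on average (adjusted p = 0.00903). The Lamb2 call at 0 h was lost without the filter (0.0522) and with only the arrays compared (0.0957).

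The collagen IV chains went in opposite directions. Col4a5, a chain of a distinct collagen IV trimer, read 1560, 1650 and 2142 with RNAi at 0 h, against 1211, 1210 and 1376 in the control arm. At 6 h it read 1740, 1812 and 1898 with RNAi, against 1338, 1302 and 1615. The arms were apart at both times, and the log2 difference was 0.48 at 0 h (SE 0.11; adjusted p = 0.00628), 0.36 at 6 h (SE 0.11; adjusted p = 0.0291) and 0.37 on average (SE 0.06; adjusted p = 0.000207). The call at 6 h was lost without control 6 h replicate 1 or 2 or RNAi 6 h replicate 1, 2 or 3 (adjusted p from 0.0532 to 0.121). With only the arrays compared neither time passed (adjusted p = 0.0559 at 0 h and 0.0522 at 6 h). Col4a2 read 937, 1248 and 1268 with RNAi at 0 h, against 1701, 1698 and 1772. It was lower by a log2 difference of -0.60 at 0 h (SE 0.12; adjusted p = 0.00313) and -0.37 on average (SE 0.07; adjusted p = 0.000487). Col4a1, transcribed away from Col4a2 from a shared promoter region in mammals, averaged 569 ± 59.2 with RNAi and 491 ± 55.2 in the control arm at 0 h (SD, n = 3 each) and was not called.

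Col19a1, a collagen that hippocampal interneurons make in mice, was also lower with RNAi. It read 351, 313 and 311 with RNAi at 0 h, against 572, 414 and 369. The 1 h signals were 357, 310 and 310 with RNAi, against 596, 394 and 422. At 6 h it read 368, 319 and 285 with RNAi, against 483, 372 and 413. The arms were apart at each time, with an average log2 difference of -0.45 (SE 0.10; adjusted p = 0.0016). The call at 1 h (adjusted p = 0.0456) was lost when any 1 of 11 arrays was left out (control 0 h replicate 2, control 1 h replicates 1 and 3, control 6 h replicate 3, RNAi 0 h replicates 1 to 3, RNAi 1 h replicates 1 to 3 and RNAi 6 h replicate 2), at adjusted p of 0.0505 to 0.213, and also without the filter (0.0872) and with only the arrays compared (0.0738). Col25a1 was lower with RNAi at 1 h by -0.52 (SE 0.16; adjusted p = 0.0383), and this call was lost without replicate 1 or 2 of either 1 h group (adjusted p from 0.0879 to 0.139) and without the filter (0.0756). Col23a1, a transmembrane collagen, differed by -0.18 on average (adjusted p = 0.0193), Col16a1 by 0.24 (adjusted p = 0.0213) and Col11a1 by 0.16 (adjusted p = 0.018), or 0.08 with the mean of all Col11a1 probe sets. Fbn1 was lower at 1 h by -0.32 (SE 0.10; adjusted p = 0.0305), lost without control 1 h replicate 2 or 3 or RNAi 1 h replicate 1 or 3 (adjusted p from 0.0794 to 0.12), and with the mean of all probe sets (-0.19, adjusted p = 0.134). The other Fbn1 probe set read -0.05.

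Fn1 and Sparc were higher with RNAi on average. Fn1 read 1864, 2074 and 2183 with RNAi at 0 h, against 1372, 1552 and 1584, and the arms were apart. Its average log2 difference was 0.41 (SE 0.12; adjusted p = 0.0143). Sparc read 5549, 6122 and 6426 with RNAi at 0 h, against 3078, 4289 and 5464. At 1 h it read 5974, 5492 and 6257 with RNAi, against 5537, 3084 and 5564. The RNAi arrays were close together and the control arrays were spread, and the average log2 difference was 0.40 (SE 0.13; adjusted p = 0.0196). The other Sparc probe set read 0.28 higher and was not called (adjusted p over probe sets 0.0739). Neither gene was called at any single time. With replicate number as a block, Fn1 was called at 0, 1 and 6 h (adjusted p = 0.00997, 0.0255 and 0.0114) and Sparc at 0 h (adjusted p = 0.0387).

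Several astrocyte markers were higher in the same arm. All 12 on the arrays passed the filter, of which 6 were called higher and 0 lower on average with RNAi, against 20.9% and 16.6% of all genes. The 6 were S100b at 0.43, Gja1 at 0.34, Slc4a4 at 0.32, Aldoc at 0.30, Gfap at 0.19 and Slc1a2 at 0.13. Under the block 10 were higher, Aqp4 (0.33) and Ndrg2 (0.29) among those gained, where 47.8% of all genes were called. The block also gave 1 lower, Aldh1l1 at -0.22. At single times 0, 0 and 1 were higher at 0, 1 and 6 h by limma without the block, and 6, 6 and 5 with it. Aldh1l1 was lower at 6 h with the block, at -0.29. With the block, 26%, 28.1% and 28.2% of all genes were called at these times. Their summed signal was 58992 to 71970 on the RNAi arrays at 0 h, against 48433 to 65253 on the control arrays. At 1 h it was 59613 to 72170 with RNAi, against 48851 to 64607, and at 6 h 58800 to 71126, against 49888 to 61930. The ranges overlapped at each time. Of 14 neuron markers measured, 1 was higher and 5 lower on average (6 lower with the block), against 20.9% and 16.6% of all genes. The 5 were Nefm at -1.04, Slc17a7 at -0.60, Camk2a at -0.35, Tubb3 at -0.19 and Map2 at -0.17. The 1 was Snap25 at 0.15, and the median of the 14 was -0.08. The part of these cell types in the higher Timp1, Mmp14, Fn1, Sparc and laminin signals was not tested. After 6 h of KCl, Gfap was lower in both arms (-0.27 in each), Glul was higher in the control arm (0.43) and no other astrocyte marker was called by limma. Over all genes, 14.7% were higher and 25.3% lower in the RNAi arm, and 16.1% and 25.5% in the control arm. The block gave 1 higher and 1 lower in the RNAi arm and 1 higher and 3 lower in the control arm, where it called 49.7% and 50.3% of all genes.

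Cldn5 read 138 to 150 with RNAi at 6 h, against 202 to 350 in the control arm, whose 3 arrays were the ones that brought it through the filter. Without a filter, limma gave a log2 difference of -0.97 (adjusted p = 0.00169). At 0 h the arms overlapped, at 90.7 to 118 with RNAi and 109 to 126 in the control arm. The average over the 3 times was -0.44 (adjusted p = 0.00246 without a filter), and neither 0 h nor 1 h was called. Kdr differed by -0.12 on average, which did not pass without a filter (adjusted p = 0.0601). In the filtered fit its adjusted p was 0.0488, and that call was lost without any 1 of 14 arrays (all but control 1 h replicate 1, control 6 h replicate 2, RNAi 1 h replicate 1 and RNAi 6 h replicate 3), at adjusted p of 0.0541 to 0.103. It was lost too with quantile normalization (0.0511) and with the mean of all Kdr probe sets, where the difference was -0.02 (adjusted p = 0.671). Mcam, by contrast, was higher with RNAi by 0.43 on average (SE 0.04; adjusted p = 1.16e-06). Of the 9 endothelial markers measured, 1 was higher on average, Mcam, and 2 were lower in the filtered fit, Cldn5 and Kdr. Over all genes the shares were 20.9% and 16.6%. Cldn5 and Kdr are among the 9 only through 6 h arrays, mostly of the control arm, so their count cannot be weighed against these shares. The summed signal of the 9 markers was 3830 to 4073 with RNAi at 6 h, against 3855 to 4005 in the control arm. Among 7 measured markers of mural cells, the contractile cells around vessels, 0 were called in any comparison by limma. Between arms, the block gave 1 higher and 1 lower on average, and 1 higher at 0 h and at 1 h, Tagln (0.44 and 0.37). With the block, 47.8%, 26% and 28.1% of all genes were called in these comparisons. After 6 h of KCl it gave 1 lower in each arm, where 49.7% of all genes were called in the RNAi arm and 50.3% in the control arm.

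The main fibrillar collagens, Col1a1, Col1a2 and Col3a1, were called in no comparison, and 1 array stood apart in them. Control 1 h replicate 3 read 807 for Col1a1, 511 for Col1a2 and 492 for Col3a1, against 359 and 441, 113 and 184, and 111 and 127 on replicates 1 and 2 of that group. On all other arrays Col1a1 lay at 359 to 535, Col1a2 at 106 to 192 and Col3a1 at 102 to 207. Col3a1 and Col1a2 exceeded the median of their group there by 1.96 and 1.48 on the log2 scale, the 2 largest excesses of any tested gene on that array, and no other of the 55 genes was over 1 from its group median on any array. Serpinf1, a secreted factor of fibroblasts, read 449 on it, against 205 and 195. Dcn and Lum, from the same list of fibroblast and meningeal markers, went the other way. Both read lower on this array than on replicates 1 and 2 of its group. Without this array the control arm still had 0 calls at 1 h.

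**Figure D5:**
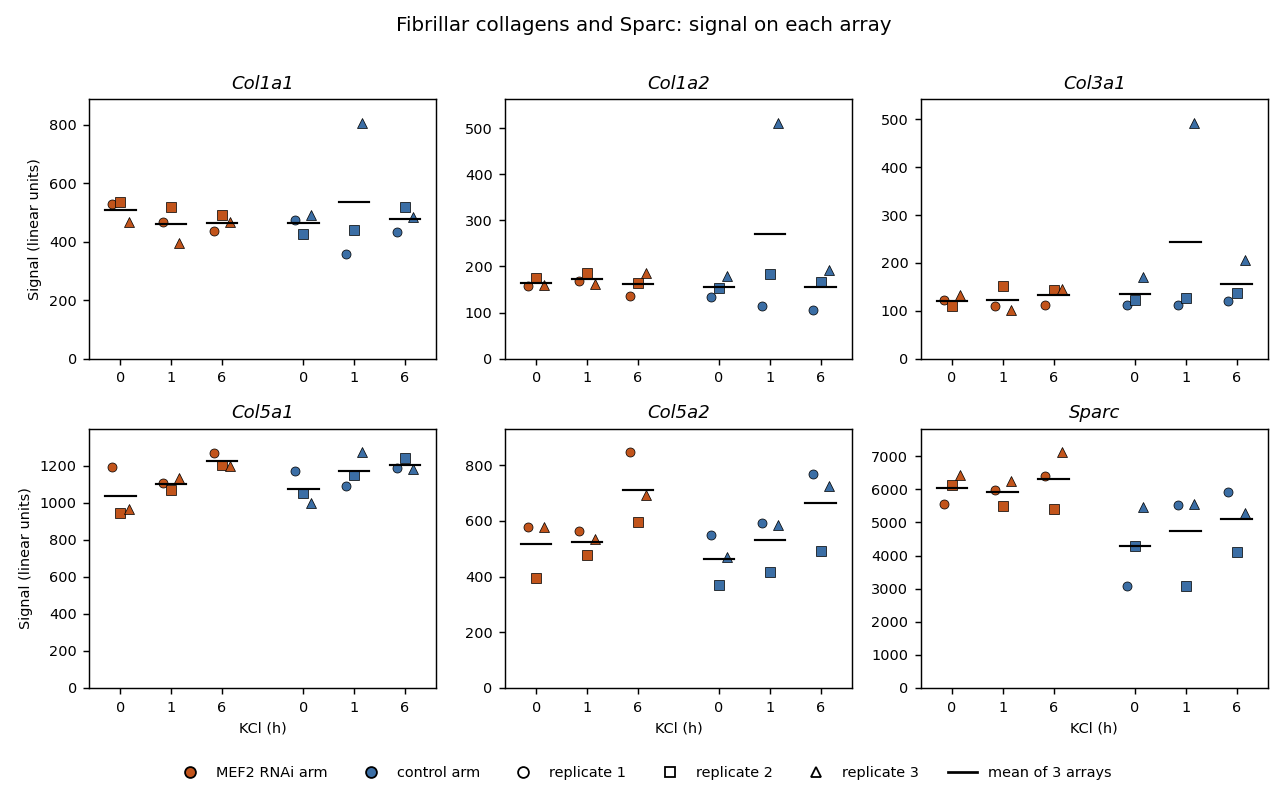
Signal (linear units, vertical axes from 0) of 5 fibrillar collagen genes and Sparc, by hours of KCl, with the 3 RNAi groups left of the 3 control groups. Each symbol is 1 array, its shape the replicate number, and bars are means of 3 arrays. Control 1 h replicate 3 stands apart in Col1a1, Col1a2 and Col3a1, at 807, 511 and 492.

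Related genes outside the members were read from 6 lists. At 6 h, 40% of all genes were called in the RNAi arm (14.7% higher and 25.3% lower) and 41.5% in the control arm (16.1% and 25.5%), and 37.6% on average between arms (20.9% and 16.6%). The counts below without the block stand against these shares. With the block, 49.7% of all genes were called at 6 h in the RNAi arm, 50.3% in the control arm and 47.8% on average. Counts given with the block stand against those. Of 16 measured genes for collagen processing and cross-linking, 1 was higher and 2 lower after 6 h of KCl in the RNAi arm, and 2 higher and 1 lower in the control arm. P4ha1, which hydroxylates proline in collagen chains, rose by 0.97 in the RNAi arm and 1.12 in the control arm (SE 0.07 each), Plod2, a lysyl hydroxylase, rose by 0.47 in the control arm, and Colgalt1, a collagen galactosyltransferase, fell, at -0.33 in the RNAi arm and -0.49 in the control arm. Between arms, 6 were higher and 2 lower with RNAi on average, among them Plod1 at 0.31 and P4ha1 at -0.24, and the block gave 9 higher and 2 lower. At 6 h in the RNAi arm it gave 2 higher and 3 lower. Of 17 integrins and other matrix receptors, 4 were higher and 2 lower at 6 h in the RNAi arm, and 5 higher and 3 lower in the control arm. Itga6, a laminin-binding integrin chain, rose by 0.68 in the RNAi arm and 1.06 in the control arm, Cd44, a hyaluronan receptor, by 1.03 and 0.86, and Ddr2, a receptor for fibrillar collagen, by 0.43 and 0.39. Between arms, 6 receptors were higher and 4 lower with RNAi on average, with Sdc4 at 0.46 the highest and Itga6 at -0.43 the lowest. With the block 6 receptors were higher in the RNAi arm and 7 in the control arm at 6 h, and 7 on average between arms.

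Of 20 other extracellular proteases and inhibitors, 7 were higher and 1 lower at 6 h in the RNAi arm, and 7 higher and 0 lower in the control arm. Serpinb2, an inhibitor of plasminogen activators, rose by 3.43 in the RNAi arm and 4.12 in the control arm, Adamts1, an aggrecan-cutting protease, by 1.13 and 0.99, and Plat, tissue plasminogen activator, by 0.53 and 0.72. Between arms 5 were higher, Plat among them at 0.43, and 3 lower with RNAi on average. With the block 9 were higher in the control arm at 6 h. Of 12 genes of perineuronal nets and neural matrix, Acan, the core proteoglycan of the nets, rose by 1.42 in the RNAi arm and 1.15 in the control arm, Cspg5 fell by 0.51 on the log2 scale in the control arm, and Tnc, tenascin-C, was higher with RNAi by 0.41. With the block 3 were higher on average, Bcan (0.23) and Vcan (0.19) besides Tnc, and 2 at 6 h in the RNAi arm. Of 10 other basement membrane genes, 0 were higher and 1 lower at 6 h in the RNAi arm (Agrn, and 2 lower with the block), 1 was higher (Nid2) and 1 lower (Fbln2) in the control arm, and 0 were called between arms on average by limma, with 1 lower under the block. Of 9 angiogenic ligands, 3 rose at 6 h in each arm, Vegfa and Adm in both, and on average 2 were higher with RNAi, Angptl4 at 0.74 and Vegfb at 0.28, and 1 lower, Vegfa at -0.20. Of 9 microglial markers and 4 of the oligodendrocyte lineage, 0 were called at 6 h in either arm or on average between arms by limma, while under the block 1 microglial marker was higher, and 1 oligodendrocyte marker higher and 1 lower, on average. At 6 h the block gave 1 oligodendrocyte marker lower in the RNAi arm, and 1 higher and 1 lower in the control arm. At 1 h Cd68, a lysosomal protein of microglia, was higher by 0.27 in the RNAi arm (adjusted p = 0.0423) and 0.45 in the control arm (adjusted p = 0.00128). Of 10 markers of proliferating cells, Mcm2 was higher at 6 h in the control arm, by 0.71, and 0 were called between arms by limma, with 2 higher under the block.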

How the data were processed

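Linear intensities, 1 for each of 31099 probe sets on each array, were used as deposited by the authors. Probe summary and normalization steps are not given in these sources. Array medians were already alike. Intensities under the 20th percentile of the table, 72.6, were raised to it before log2 was taken, which understates the fold of dim genes. Of several probe sets for a gene, that of highest average log2 signal over the 18 arrays stood for it, and genes above the 40th percentile of an array on at least 3 arrays were kept. Tests were two-sided, from lmFit and eBayes of limma 3.58.1 (R 4.3.3), with a mean for each of the 6 groups, with Benjamini-Hochberg adjustment over 10933 genes. The interaction subtracts the control arm's KCl difference from the RNAi arm's. Other probe sets were fitted in the same way with adjustment over all probe sets that passed the filter. Fits without the block were also run on simulated data in which arrays were independent. Such a check does not cover arrays that deviate together by replicate number.

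Replicate numbers are in the sample titles. Residuals of arrays with the same number correlated at 0.168 to 0.741 in all 45 pairs (median 0.491), against -0.625 to 0.425 in 90 pairs with different numbers. Residuals were centred within each group, so low values in the 90 pairs follow in part from high ones in the 45. From the 45 pairs, the numbers were taken to pair the arrays. A fit with the number as a block was run beside the fit without it, which gave the main calls.

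Named genes are the members called in a comparison, up to 12 each way, the core members by role whether called or not, and of each related list called members, up to 4 each way. The members, lists and tests were chosen with earlier results of these data known. The lists are collagen processing, matrix receptors, other basement membrane genes, perineuronal net and neural matrix, other proteases and inhibitors, and angiogenic ligands, and markers of endothelial, mural, fibroblast and meningeal cells, astrocytes, microglia, oligodendrocyte lineage, neurons and proliferating cells. Alternatives were a lower floor, no filter, a stricter filter, quantile normalization, the mean of all probe sets, the replicate block, a mean-variance trend with robust estimation, the arrays compared alone, and each array left out.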

Additional observations from a re-analysis of the deposited data

How the results depend on the processing

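With replicate number as a block, the members called after 6 h of KCl in the RNAi arm were 20 in place of 13, those between arms 16 at 0 h in place of 9 and 13 at 6 h in place of 7, and those after 1 h in the RNAi arm 1 in place of 0. All 73 called member values kept their call under the block and 33 more gained one, so it ended none. Without the filter, members that had failed it were tested too. There, 1 member was called after 1 h in the RNAi arm and 7 between arms at 1 h in place of 12. No member of the main fit gained a call without the filter, so the 1 was a gene that had failed it. Shares of all genes are not given for this setting or for the arrays compared alone, so the counts for either were not weighed against a share. With only the arrays compared in the fit, 1 member was called after 1 h in the RNAi arm and 3 between arms at 6 h. For the average this setting was not run, since the average uses all 6 groups. No called value changed sign under any alternative. With only the arrays compared, 15 of 52 called values lost their call, and with the stricter filter 0 of the 61 still tested. Of the 73, 13 lost it without the filter, 11 with the mean of all probe sets, 3 with quantile normalization, 1 with the trend and robust estimation, and 0 with the lower floor. With 1 array left out, 124 of 1314 refitted values lost their call. With 1 array left out at a time, the members called were 0 to 0 after 1 h and 9 to 15 after 6 h in the RNAi arm, 0 to 1 after 1 h and 8 to 12 after 6 h in the control arm, 5 to 11 between arms at 0 h, 4 to 13 at 1 h, 2 to 8 at 6 h and 20 to 24 on average, and 0 to 0 and 0 to 1 for the interactions at 1 h and 6 h. Counts moved by over 1.5 times between arms at 0 h without control replicate 2 (5), at 1 h without RNAi replicate 1 (4), control replicate 2 (6) or RNAi replicate 3 (7), and at 6 h without RNAi replicate 1 (2), control replicate 2 (2), control replicate 3 (4) or RNAi replicate 3 (4). The causes were not tested. Probe sets near or below the array's 40th percentile lie close to background, which limits what their differences show. Among them are those of Cldn5, Kdr, Col3a1 and Fmod, and that of Lum on the RNAi arrays at 0 and 1 h.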

Other observations

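Beside Col3a1, Col1a2, Col1a1 and Serpinf1, other genes exceeded their group on control 1 h replicate 3. Cwc25 read 752 there, against 319 and 193 on replicates 1 and 2. Ifi27 read 1055 against 524 and 546, Unc5a 485 against 276 and 245, and Anxa2 767 against 478 and 446. Mgp, the matrix Gla protein, read 773 against 349 and 500. Further down the order was Syn1, from the list of neuron markers, at 2530 against 1568 and 1746. These genes were chosen after their values were seen.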
